A study of Homo sapiens with 4 samples.

Results

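RNA immunoprecipitation (RIP) of PRMT5 was examined at 52 genes of the DNA damage response and DNA repair, of which 31 had at least 1 peak in a list of 18993 peaks assigned to 8478 genes. The members were taken by name, as genes with textbook roles in checkpoint signalling, break sensing or a repair pathway. The rule itself used no value of the peak list, but the members were chosen with earlier results of these data known. The 4 libraries came from Jurkat, a human T cell line established from a leukemia, whose cells had been stimulated with the mitogen phytohaemagglutinin (PHA) for 48 hours and irradiated with UV light at 264 nm and 400 mJ (as the labels give it; the study's methods name another wavelength) to link proteins to RNA. In 2 libraries RNA was recovered with PRMT5 by immunoprecipitation through a FLAG tag, and the other 2 were sequenced from input. All 4 shared the cell line, PHA and UV, and no control immunoprecipitation was analysed here.

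The peak list holds 1 value per group at each peak, in RPM (reads scaled to the size of the library), with the libraries of a group combined. No replicate spread or standard deviation can therefore be given, no test was run on the values printed here, and the read depth behind each value is unknown. For each gene the RPM was summed over its peaks, and the difference is given as the log2 ratio of PRMT5 RIP over input, with 0.01 RPM added to both. A sum grows with the number and width of the peaks and was not divided by length, so levels are compared between PRMT5 RIP and input within a gene and not between genes. The list holds called peaks, of which 3.84% were below input in PRMT5 RIP, and the members are read against all 8478 genes with a peak. The summed RPM over all peaks was 755969 in PRMT5 RIP and 489424 in input. Of 10 T cell markers, 7 had a peak under a named identifier, with 873 RPM summed in input. This was so for 1 of 4 B cell markers (CD79A, 37.3 RPM) and 1 of 4 myeloid markers (CSF1R, 29.5 RPM). TRAC, TRBC1 and TRBC2 had none under a named identifier. Only 6165 of the 8478 identifiers were named, so a marker counted as without a peak may have one under an unnamed identifier.

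PRMT5 is an arginine methyltransferase that places symmetric dimethyl marks on proteins, including those of the splicing machinery. DNA damage is detected by sensor complexes that activate the kinases ATM and ATR, and the lesion is then handled by a pathway matched to its kind, such as homologous recombination or end joining for double-strand breaks, excision of single damaged bases, and nucleotide excision repair for bulky and UV-induced lesions. In developing T lymphocytes, end joining also connects the gene segments of the antigen receptors.

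At 24 of the 31 genes with a peak, the peak nearest the 5′ end began within 200 nt of an annotated transcription start (77.4%, beside 71.3% of 5647 named protein-coding genes). To show where such peaks lie on the transcript, the first bases under a peak at the start are printed for 7 genes, those whose peak began at or after the start, for which a RefSeq promoter record (GRCh38.p14) covered at least 25 of these bases and which had at least 0.5 RPM in input in that peak. For RUVBL1 this is its second peak, at the other of its 2 annotated starts. The stretches are given 5′ to 3′ on the transcribed strand, in lower case throughout because no motif was marked in them. They lay at chr14:20455241-20455270 (plus strand, APEX1), chr19:45423881-45423910 (minus, ERCC1), chr1:226408061-226408090 (minus, PARP1), chr17:58692623-58692651 (plus, RAD51C), chr3:128123773-128123802 (minus, RUVBL1), chr12:109097597-109097626 (plus, UNG) and chr3:14178552-14178576 (minus, XPC).
APEX1: gttaggaggagctaggctgccatcgggccg
ERCC1: ctgcgagccctgggccacgctggccgtgct
PARP1: aatctatcagggaacggcggtggccggtgc
RAD51C: gggttagcaggtgagcctgcgatgcgcgg
RUVBL1: gcatggtaactcaggcgccgggcgcactgt
UNG: aattgctgaccgccacagccacagccaggg
XPC: caagcaacatggctcggaaacgcgc
These stretches held between 60% (XPC) and 76.7% (ERCC1) G and C. Over the first 50 bases after the start, the median share of G and C was 66% in 27 members with a peak and 64% in 20 members without one, beside 68% in 5630 named protein-coding genes with a peak.

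Of the 31 genes with a peak, 17 (54.8%) reached at least 2 times input by their RPM in PRMT5 RIP, beside 62.3% of all genes with a peak. None was lower in PRMT5 RIP by its summed RPM, beside 2.22% of all genes. The median log2 ratio was 1.13 (range 0.22 to 2.35), and that of all genes was 1.20 (middle 90% between 0.19 and 2.54). The share and the median of the repair genes thus lay slightly below those of all genes with summed RPM, but with the median over the peaks of each gene in place of the sum the medians were 1.27 and 1.20 and the shares 61.3% and 61.9%. Summed over the 75 peaks of these genes, RPM was 737.54 in PRMT5 RIP and 454.51 in input.

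**Figure D1:**
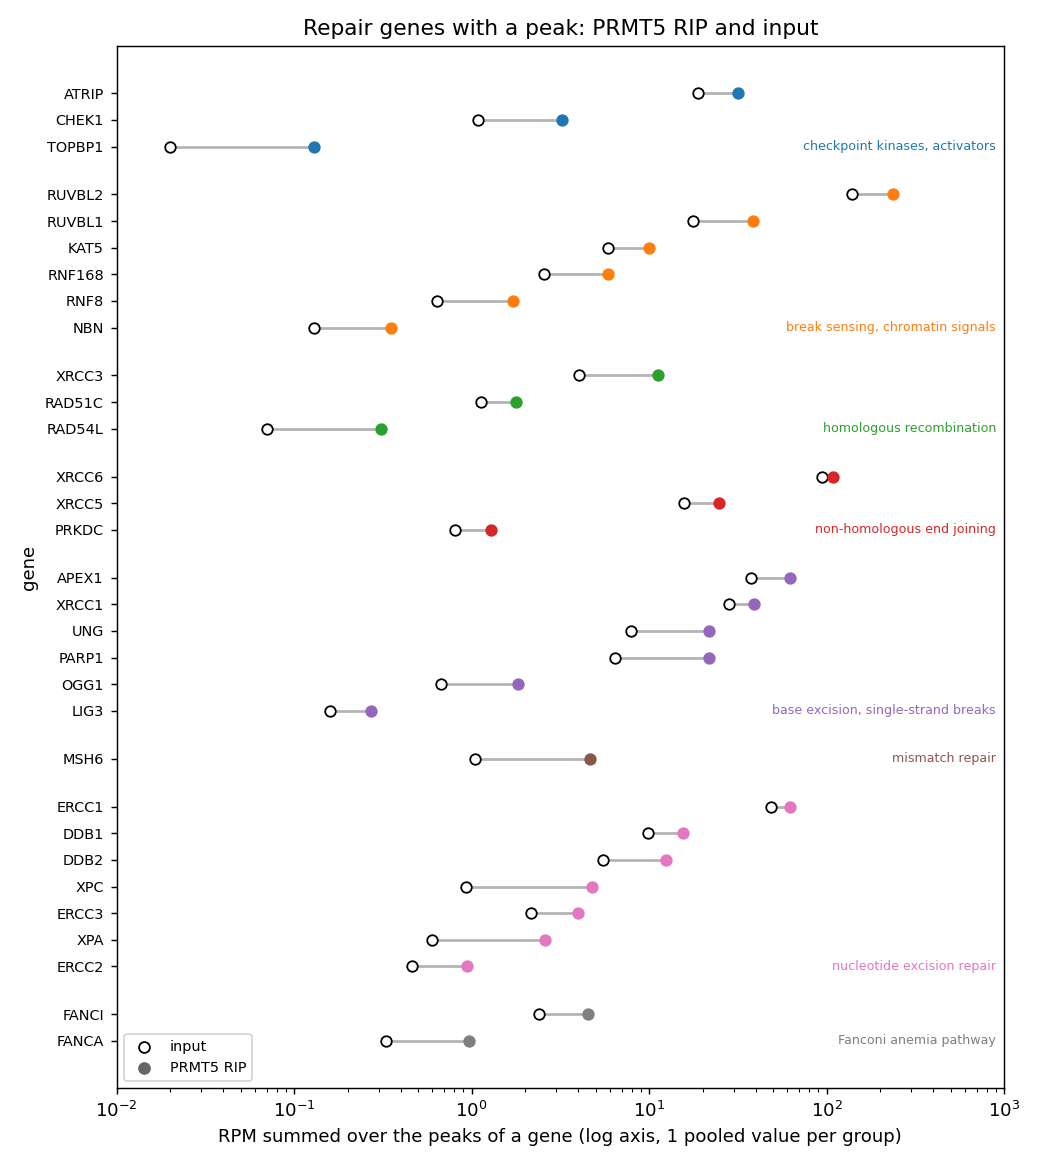
RPM summed over the peaks of each of the 31 repair genes in PRMT5 RIP and in input (log axis), with genes grouped by role; each point is the combined value of 2 libraries and has no error bar. In all 31 genes the PRMT5 RIP point lies to the right of the input point, and the gap is narrowest at XRCC6.

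The log2 ratio over all genes was lower where the input was higher: when the 8478 genes were divided into 10 classes of nearly equal size by input RPM, the class median fell from 1.87 in the lowest to 0.65 in the highest. The repair genes showed the same order. Input RPM both sorts the genes and is the denominator of the ratio, and the list holds only called peaks. Such an order is therefore partly built in, and how far was not tested. In the lowest 4 classes, 11 of 14 repair genes reached 2 times input and their median log2 ratio was 1.48, beside 84.6% and 1.64 for all genes of these classes. In classes 5 to 8 it was 5 of 10 genes with a median of 1.04, beside 56.2% and 1.07. In the highest 2 classes it was 1 of 7 genes (RUVBL1) with a median of 0.72, beside 30% and 0.73. Set against the median of its own input class, 13 of the 31 genes were above it, where 50.0% of all genes are, and the median difference was -0.14. With the median over the peaks of a gene in place of the sum, 18 of the 31 were above it, so the side on which the repair genes fell turned with the summary used.

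**Figure D2:**
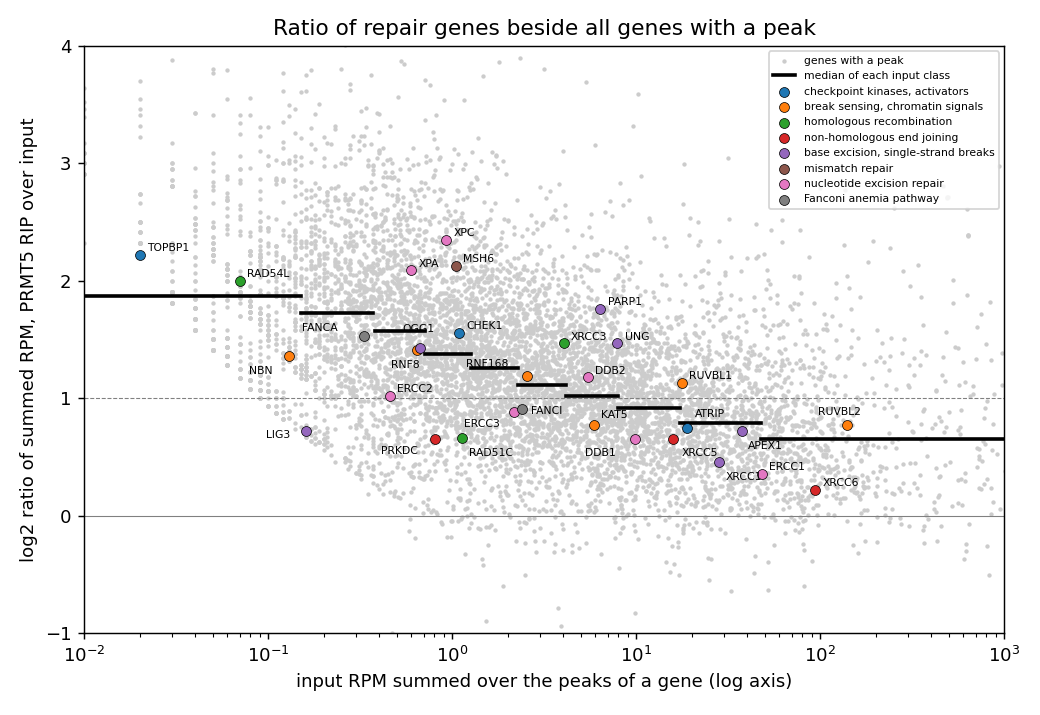
The log2 ratio of summed RPM (PRMT5 RIP over input) against input RPM (log axis) for genes with a peak (grey) and the 31 repair genes (coloured by role), with the median of each input class as a bar; 98 of the 8478 genes fall outside the axes. XPC, MSH6 and PARP1 lie farthest above the bar of their class, and LIG3, PRKDC and RAD51C farthest below.

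The other 21 members had no peak under their own identifier: the apical kinases ATM and ATR; CHEK2 and CLSPN of the checkpoint; RAD50, MRE11, MDC1 and TP53BP1 of break sensing; BRCA1, BRCA2, PALB2, BARD1, RAD52, XRCC2, BLM and WRN of homologous recombination; XRCC4 and LIG4 of end joining; MSH3 and PMS2 of mismatch repair; and FANCD2 of the Fanconi anemia pathway. The share with a peak was lowest in homologous recombination, with 3 of 11 genes, whereas all 6 genes of base excision and single-strand break repair and all 7 of nucleotide excision repair had one. Of 20056 RefSeq protein-coding genes, 28.2% had a peak under a named identifier, a lower bound because not every identifier was named, and the share in homologous recombination was close to it. For 20 of the 21 genes no peak of any identifier lay on the gene. The exception was a 50-nt peak between the 2 annotated starts of BRCA1 (chr17:43148668-43148717, minus strand), with 0.35 RPM in PRMT5 RIP against 0.13 RPM in input. The list gives it under another identifier. Naming by position would assign that identifier to BRCA1, but it was left out by hand and the peak was not counted. The list does not tell an RNA that is absent from these cells from one that was present without a called peak, because levels outside peaks are not listed. The genes without a peak were longer, with a median span of 85192 nt against 36855 nt for those with a peak, and the part of length in having a peak was not tested. The median was 23738 nt for named protein-coding genes with a peak and 24092 nt for all RefSeq protein-coding genes, which include them. No median was taken over all genes without a peak, so the difference among the repair genes has no like comparison here.

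Among checkpoint genes, 3 of 7 had a peak. Of those 3, 2 reached 2 times input, beside 62.3% of all genes with a peak. CHEK1 (ENSG00000149554), the effector kinase that ATR activates, had 3.23 RPM in PRMT5 RIP against 1.09 RPM in input, a log2 ratio of 1.56. Most of its RPM came from a 1079-nt peak 274 nt from the nearest start (chr11:125626629-125627707, 2.90 RPM in PRMT5 RIP against 1.01 RPM in input), beside a 25-nt peak of 0.33 RPM and 0.08 RPM at chr11:125625988-125626012. Both CHEK1 peaks were therefore higher in PRMT5 RIP.
ATRIP (ENSG00000164053), the partner that brings ATR to coated single-stranded DNA, had 31.83 RPM in PRMT5 RIP against 18.98 RPM in input, with a log2 ratio of 0.75. Its peak at the start (chr3:48446783-48447032) had 2.79 RPM against 0.65 RPM, and a second (chr3:48465033-48465510) had 0.40 RPM against 0.07 RPM. The other 3 (chr3:48466236-48466310, chr3:48466611-48467410 and chr3:48467436-48467585) had 1.15 RPM, 25.89 RPM and 1.60 RPM in PRMT5 RIP and 0.31 RPM, 17.31 RPM and 0.64 RPM in input. These 3 lie where RefSeq places both ATRIP and the exonuclease gene TREX1 on the same strand, and the list assigns them to 2 identifiers. The 2 genes cannot be told apart there, and without these 3 peaks the log2 ratio of ATRIP was 2.13. TOPBP1, an activator of ATR, had a single 25-nt peak of 0.13 RPM against 0.02 RPM, so its log2 ratio of 2.22 rests on an input value near the rounding step of 0.01 RPM.

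Of the genes for break sensing and chromatin signalling, 6 of 10 had a peak. Of those 6, 4 reached 2 times input, beside 62.3% of all genes with a peak. RUVBL1 and RUVBL2 encode AAA+ ATPases that are subunits of the KAT5 (TIP60) acetyltransferase complex, which modifies chromatin at breaks. RUVBL2 (ENSG00000183207) had the largest RPM sum of all 31 genes (not per length), 237.84 RPM in PRMT5 RIP against 139.12 RPM in input, a log2 ratio of 0.77. Of its PRMT5 RIP RPM, 96.2% was in 1 peak of 14281 nt (chr19:49001395-49015675, 228.79 RPM against 135.52 RPM) that carries 2 identifiers. The 2 peaks before it had higher ratios, with 8.92 RPM against 3.58 RPM at chr19:48993862-49001369 and 0.13 RPM against 0.02 RPM in 25 nt at chr19:48993712-48993736. RUVBL2 thus had its lowest ratio where it had most of its RPM. Without its 2 peaks wider than 5000 nt only the 25-nt peak was left. The log2 ratio of 2.22 under that setting rests on an input of 0.02 RPM, near the rounding step of 0.01 RPM.
RUVBL1 had 38.60 RPM in PRMT5 RIP against 17.69 RPM in input, with a log2 ratio of 1.13 that was 0.33 above the median of its input class. Its first peak (6.63 RPM against 3.02 RPM) overlapped by 300 nt a peak of EEFSEC on the opposite strand with nearly the same RPM (5.92 RPM against 2.75 RPM).
KAT5 (ENSG00000172977) itself had 10.04 RPM against 5.90 RPM, a log2 ratio of 0.77, over 4 peaks on chromosome 11. From 5′ to 3′ these had 0.14 RPM, 1.31 RPM, 4.76 RPM and 3.83 RPM in PRMT5 RIP against 0.02 RPM, 0.42 RPM, 2.76 RPM and 2.70 RPM in input (chr11:65712271-65712295, chr11:65712371-65712445, chr11:65712745-65713031 and chr11:65713496-65714511). Its log2 ratio fell at each step along the gene, from 2.32 to 1.62, 0.78 and 0.50.
RNF8 and RNF168 are ubiquitin ligases that act in sequence on chromatin around a break. RNF8 (ENSG00000112130) had 1.72 RPM in PRMT5 RIP against 0.64 RPM in input, a log2 ratio of 1.41, in a peak close to its start (chr6:37354083-37354257, 1.35 RPM against 0.54 RPM) and a 50-nt peak farther on (chr6:37360453-37360502, 0.37 RPM against 0.10 RPM). RNF168 had 5.84 RPM against 2.56 RPM, a log2 ratio of 1.19, in 1 peak 73 nt from its start. NBN, the regulatory subunit of the MRE11 complex, had 0.35 RPM against 0.13 RPM in 50 nt, while the other subunits of that complex, RAD50 and MRE11, had no peak.

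In homologous recombination, XRCC3 and RAD51C, which pair in a complex of their own, and RAD54L, a DNA translocase, had a peak. XRCC3 had 11.23 RPM in PRMT5 RIP against 4.05 RPM in input, a log2 ratio of 1.47, from 6 peaks on the minus strand of chromosome 14. Most of it lay in a peak of 4.19 RPM against 1.70 RPM (chr14:103711133-103711577) and the most 3′ peak of 5.53 RPM against 1.53 RPM (chr14:103698609-103699432). The remaining peaks (chr14:103712948-103715452, chr14:103712103-103712897, chr14:103707179-103707203 and chr14:103707004-103707028) had between 0.27 RPM and 0.54 RPM in PRMT5 RIP and between 0.10 RPM and 0.26 RPM in input. Of the 6 peaks, 4, including both of the largest, overlap peaks of KLC1 on the opposite strand, and without them the log2 ratio of XRCC3 was 0.91.
RAD51C had a single 125-nt peak at its start (chr17:58692623-58692747) with 1.79 RPM against 1.13 RPM, and its log2 ratio of 0.66 was 0.72 below the median of its input class. RAD54L had 0.31 RPM against 0.07 RPM in 50 nt.

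In non-homologous end joining, 3 of 5 genes had a peak. None of these 3 reached 2 times input, beside 62.3% of all genes with a peak. None was above the median of its input class, where 50.0% of all genes are. In the input classes of XRCC5, XRCC6 and PRKDC (8, 10 and 4), 42.71%, 27.71% and 73.92% of all genes reached 2 times input. XRCC6 and XRCC5 encode the Ku70 and Ku80 subunits of the Ku heterodimer, which binds broken DNA ends, and PRKDC encodes the catalytic subunit of DNA-PK, which Ku recruits. XRCC6 had the lowest log2 ratio of all 31 genes, 0.22, with 109.08 RPM in PRMT5 RIP against 93.75 RPM in input, 0.43 below the median of its input class. In 3 of its 4 peaks PRMT5 RIP was below input: 6.88 RPM against 7.77 RPM (chr22:41622017-41628147), 30.87 RPM against 31.37 RPM (chr22:41636519-41637655) and 2.19 RPM against 2.68 RPM (chr22:41637706-41637730). The fourth, 13073 nt wide (chr22:41650825-41663897), had 69.14 RPM against 51.93 RPM. The sum of XRCC6 was therefore above input through its most 3′ peak alone, and without its peaks wider than 5000 nt the log2 ratio was -0.04.
XRCC5 had 24.85 RPM against 15.82 RPM, a log2 ratio of 0.65, and its second peak was close to equal at 1.71 RPM against 1.73 RPM. PRKDC also had a log2 ratio of 0.65, from 1 peak of 100 nt at its start (chr8:47960040-47960139) with 1.28 RPM against 0.81 RPM. These 4 peaks of the Ku genes were the only ones of the 75 in which PRMT5 RIP was below input (5.33%, beside 3.84% of all peaks). Of 9 other end-joining genes listed for comparison, 5 had a peak. Of those 5, 2 reached 2 times input and none was above the median of its input class, beside 62.3% and 50.0% of all genes.

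All 6 genes of base excision and single-strand break repair had a peak. Of these, 3 reached 2 times input, beside 62.3% of all genes with a peak. PARP1, which senses strand breaks and builds poly(ADP-ribose), had 21.69 RPM in PRMT5 RIP against 6.39 RPM in input, a log2 ratio of 1.76 and 0.74 above the median of its input class. A single peak of 21670 nt that began 4 nt from the start (chr1:226386421-226408090, 21.45 RPM against 6.26 RPM) held 98.9% of this, and the other (chr1:226383081-226383105) had 0.24 RPM against 0.13 RPM (log2 ratio 0.84). XRCC1, the scaffold that gathers repair proteins at the break, was at the other end with 38.90 RPM against 28.18 RPM, a log2 ratio of 0.46. PARP1 and XRCC1 thus stood at opposite ends of the pathway, with no replicate check.
The peaks of XRCC1 were 11.80 RPM against 9.68 RPM (chr19:43554721-43584371), 3.81 RPM against 3.72 RPM (chr19:43574916-43574940), 16.49 RPM against 10.45 RPM (chr19:43551637-43553418) and 6.80 RPM against 4.33 RPM (chr19:43544223-43546662). The first is 29651 nt wide, begins upstream of the start of XRCC1 (offset -8844 nt), carries 3 identifiers and reaches into IRGQ, so its RPM cannot be assigned to XRCC1 alone. The second lies within the first on the same strand, and whether the sum holds the same reads more than once is unknown. Both overlap peaks on the opposite strand, and without these 2 peaks the log2 ratio of XRCC1 was 0.66.
APEX1, the endonuclease that cuts at abasic sites, had 62.06 RPM against 37.64 RPM in 1 peak of 2039 nt (chr14:20455241-20457279), a log2 ratio of 0.72. The glycosylases UNG, which removes uracil, and OGG1, which removes oxidised guanine, had log2 ratios of 1.47 (21.89 RPM against 7.91 RPM) and 1.43 (1.82 RPM against 0.67 RPM). LIG3, the ligase that seals the nick, had 0.27 RPM against 0.16 RPM, a log2 ratio of 0.72 that was farthest below the median of its input class (by 1.01) of the 31 genes. The ratio therefore varied within the pathway, with PARP1, UNG and OGG1 above 2 times and XRCC1, APEX1 and LIG3 below it. These genes lie in different input classes. The difference from the class median was 0.74 in PARP1, 0.45 in UNG, -0.07 in APEX1, -0.14 in OGG1, -0.33 in XRCC1 and -1.01 in LIG3.

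In mismatch repair only MSH6, a subunit of the mismatch recognition complex, had a peak among the 3 listed genes. It spanned 7783 nt from 83 nt after a start (chr2:47783227-47791009), with 4.64 RPM in PRMT5 RIP against 1.05 RPM in input, a log2 ratio of 2.13 and 0.76 above the median of its input class.

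All 7 genes of nucleotide excision repair had a peak. Of these, 4 reached 2 times input, beside 62.3% of all genes with a peak. The largest log2 ratio of the 31 genes was that of XPC, which recognises distorted DNA at the start of the pathway, at 2.35, from 1 peak of 10301 nt (chr3:14168276-14178576) with 4.79 RPM in PRMT5 RIP against 0.93 RPM in input. XPA, which checks the lesion and holds the incision complex together, was next within this pathway at 2.09 with 2.58 RPM against 0.60 RPM in 1 peak 51 nt from its start. DDB2 and DDB1 form the complex that finds UV lesions in chromatin, and their log2 ratios were 1.18 (12.49 RPM against 5.49 RPM) and 0.65 (15.54 RPM against 9.89 RPM). The recognition genes therefore spread over much of the range of all 31 genes.
ERCC3 and ERCC2, the helicases of TFIIH that open the DNA, had log2 ratios of 0.88 (4.0 RPM against 2.17 RPM) and 1.02 (0.94 RPM against 0.46 RPM). The value of ERCC2 comes from 4 peaks of 25 nt each, of which only the most 3′ (0.16 RPM against 0.02 RPM) was above 2 times input. ERCC1, a subunit of the nuclease that cuts 5′ of the lesion, had the smallest ratio of the pathway, with 62.30 RPM against 48.47 RPM and a log2 ratio of 0.36. Of this, 55.30 RPM against 44.62 RPM was in a peak of 9463 nt (chr19:45414009-45423471) and 6.80 RPM against 3.76 RPM in the peak at the start (chr19:45423547-45423910). Its last peak (chr19:45408559-45408583) had 0.20 RPM against 0.09 RPM, the same values as a peak of POLR1G on the opposite strand that covers 24 of its 25 nt.

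In the Fanconi anemia pathway, which unhooks crosslinks between strands, FANCA of the core complex had 0.97 RPM against 0.33 RPM (log2 ratio 1.53) and FANCI, one of the targets that the core complex ubiquitinates, had 4.54 RPM against 2.41 RPM (log2 ratio 0.91). FANCI had 0.49 RPM against 0.05 RPM in a peak of 157 nt at its start (chr15:89244020-89244176), a log2 ratio of 3.06, the highest of the 75 peaks. Its second peak, 14897 nt wide (chr15:89245833-89260729), had 4.05 RPM against 2.36 RPM, a log2 ratio of 0.78. The 2 peaks of FANCI thus differed more than any other pair of outermost peaks. The ratio of its first peak rests on an input of 0.05 RPM, few rounding steps of 0.01 RPM, and is coarse.

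The peaks of the repair genes were somewhat wider than others, with a median width of 445 nt against 275 nt for all peaks and with 13 of 75 (17.3%) wider than 5000 nt, beside 14.1% of all peaks. Of the 75, 15 (20%) were 25 nt wide, beside 15% of all peaks. The position of the 5′-most peak was close to the start in most genes: it began within 100 nt in 20 of the 31, within 200 nt in 24 and within 500 nt in 26. Of all 5647 named protein-coding genes, 3432 were within 100 nt and 4415 within 500 nt. Among the 13 genes with 1 peak, 12 had it within 200 nt and NBN did not, beside 66.8% of 2176 named protein-coding genes with 1 peak. The other exceptions were CHEK1, OGG1, XRCC6, XRCC1, ERCC2 and DDB1. DDB1 had its second peak 13 nt from the start, behind a first peak that overlaps one of TKFC on the opposite strand.

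**Figure D3:**
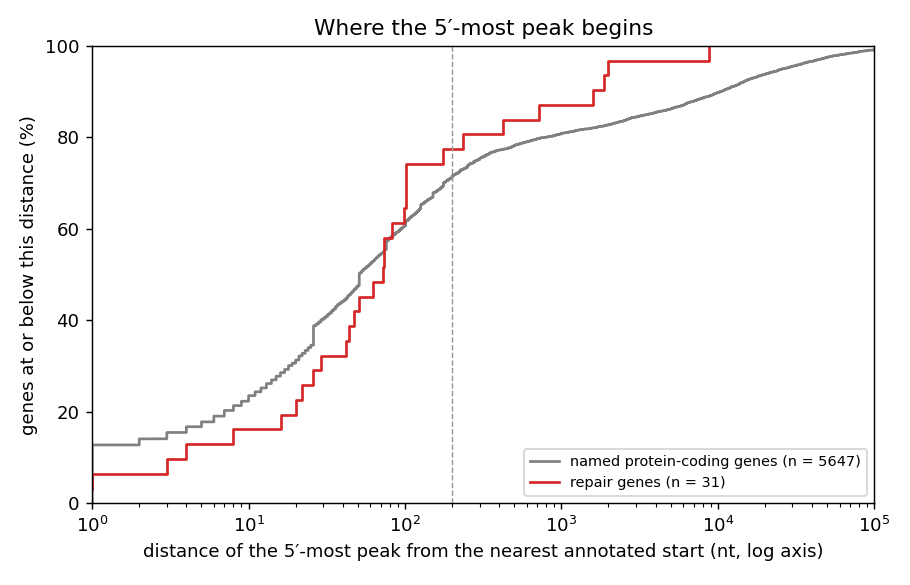
Cumulative share of genes (percent) by the distance in nt (log axis) between the 5′-most peak and the nearest annotated start, for the 31 repair genes (red) and 5647 named protein-coding genes with a peak (grey); the dashed line marks 200 nt. At that line the repair genes are at 77.4% and the others at 71.3%.

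Peaks that began within 200 nt of a start, 31 peaks in 25 genes, had a median log2 ratio of 1.31, 21 of them reached 2 times input and none was below input. The 44 peaks farther away had a median of 0.82, 18 reached 2 times input and 4 were below input. Over all named protein-coding genes the medians were 1.42 and 0.93, and 72.7% of 4581 peaks near a start and 46.7% of 9048 farther peaks reached 2 times input, with 51 and 425 below input. The repair genes thus followed the order of all genes, with higher ratios near a start.

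Of the 18 genes with at least 2 peaks, 12 (66.7%) had a higher log2 ratio in the 5′-most peak than in the 3′-most peak, beside 69.5% of all genes with at least 2 peaks. The medians were 1.31 and 0.96 in the repair genes and 1.39 and 0.96 in all genes. The widest differences in this direction were those of FANCI (3.06 against 0.78), KAT5 (2.32 against 0.50), RUVBL2 (2.22 against 0.76) and UNG (2.44 against 1.27). In UNG, the 5 peaks from the start onward had 3.35 RPM, 9.64 RPM, 4.05 RPM, 0.54 RPM and 4.31 RPM in PRMT5 RIP against 0.61 RPM, 3.30 RPM, 1.96 RPM, 0.26 RPM and 1.78 RPM in input. The reverse order was seen in ERCC1, ERCC2, RNF8, XRCC1, XRCC3 and XRCC6, where the 3′-most peak of ERCC1 and of XRCC3 overlaps a peak on the opposite strand. Many of the outermost peaks are low: where both had at least 0.5 RPM in input, the order was 5 of 7.

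**Figure D4:**
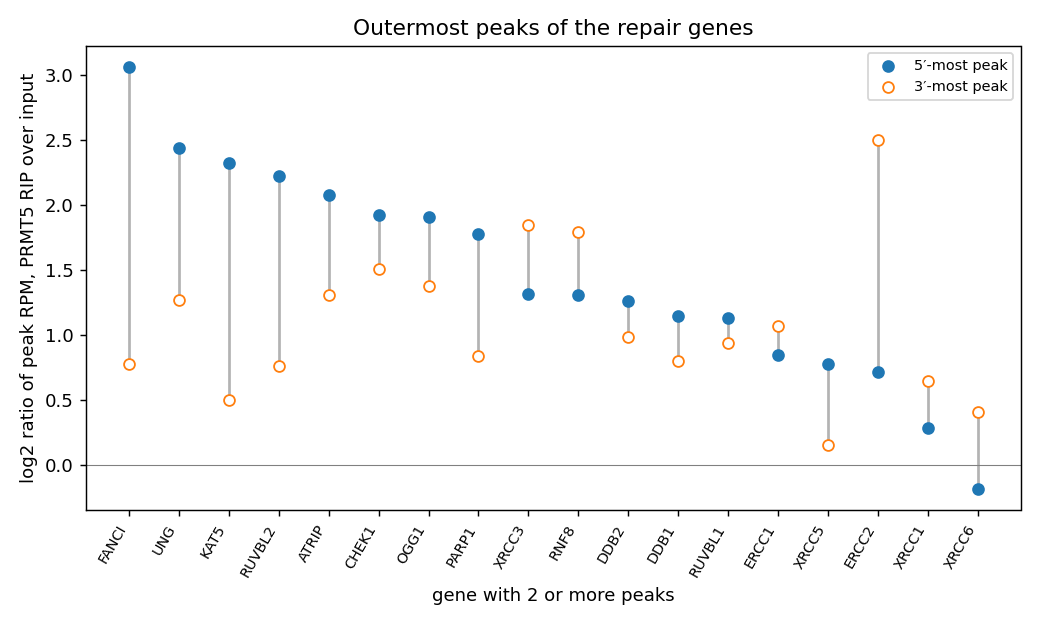
The log2 ratio of RPM (PRMT5 RIP over input) in the 5′-most peak (filled) and the 3′-most peak (open) of the 18 repair genes with at least 2 peaks, ordered by the 5′-most value. In 12 genes the filled point is the higher, FANCI has the longest line, and in XRCC6 the filled point lies below 0.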

How the data were processed

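RNA from PRMT5 RIP and from input (2 libraries each, directional library kit) was sequenced by the authors. The submitters' notes name fastp, HISAT2 and hg38; the versions, the peak caller, the annotation and the way in which libraries were combined are not given in the sources used here. The authors deposited 1 peak list with a PRMT5 RIP and an input RPM per peak, both rounded to 0.01. It also holds their own log2 fold change, p-value and FDR for each peak, which were not used. Total counts per library, and so intervals, are unknown.

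Where a peak lists several identifiers the first was taken, and RPM was summed over the peaks of each of the 8478 identifiers. Identifiers were named from a gene table of the study, of which 1999 rows were at hand (849) or from the same-strand RefSeq gene (GRCh38.p14) touched by most of their peaks (5316). Both ways gave a name to 694, the same for 693. Of the 31 repair genes with a peak, 6 were named by the table and 25 by position. The strand of 39 genes without a promoter record was entered by hand. From the naming by position 1 identifier was left out by hand, that of the peak between the starts of BRCA1. Offsets count from base 1 at the nearest annotated start. At least 2 times input means a log2 ratio of at least 1 after adding 0.01 RPM. With 1 combined value per group no test was possible. The members, the 127 other repair genes and the roles were chosen with earlier results of these data known, and the 200-nt limit after values were seen. Peak positions and values were given in full for the genes with the highest RPM, the largest and the smallest ratio of each role (input at least 0.5 RPM). The code was tested on simulated data. Python 3.11.15, pandas 2.3.3 and numpy 2.4.6 were used. Alternatives were other pseudocounts, an input filter, leaving out wide, shared or opposite-strand peaks, other summaries per gene and other naming.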

Additional observations from a re-analysis of the deposited data

How the results depend on the processing

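The median log2 ratio of the repair genes (1.13) was 0.94 with 0.1 RPM added and 0.70 with 1 RPM added, where that of all genes was 1.08 and 0.75. It was 0.91 with at least 0.5 RPM in input (all genes 1.05) and 0.69 with symbols from the study's table only. The copy of that table used here is cut to 1999 rows, so the values under this setting reflect the few names it holds. With it, 6 genes had a peak, 2 reached 2 times input and 2 were above the median of their input class. With 1 RPM added, 9 genes reached 2 times input, and 30% of all genes did. Where both outermost peaks had at least 0.5 RPM in input, 5 of 7 genes had the higher ratio at the 5′ end. The count of genes lower in PRMT5 RIP rose from 0 to 1, XRCC6, without peaks wider than 5000 nt (log2 ratio -0.04) and with the median over peaks (-0.10). Without wide peaks PARP1 was at 0.84, FANCI at 3.06 and RUVBL2 at 2.22. Each of these values comes from a single low peak, with 0.13 RPM, 0.05 RPM and 0.02 RPM in input. XPC and MSH6 had no value because their only peaks are wide. With the median over peaks, the median of the repair genes was 1.27 and 18 were above the median of their input class, where other settings with all 31 genes gave 12 to 15. With the BRCA1 peak counted, as naming by position gives it without the exclusion by hand, 32 genes had a peak. Of these, 18 reached 2 times input and the median was 1.15. This alternative was chosen after seeing the data. No paired analysis was possible because the list holds 1 combined value per group, and no library could be left out for the same reason. Depth is unknown, and values below 0.1 RPM are few rounding steps of 0.01 RPM, so ratios of TOPBP1, RAD54L, the first peak of FANCI and the 25-nt peaks are coarse.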

Other observations

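Of 127 other genes of DNA repair, 69 had a peak, 37 (53.6%) reached 2 times input, beside 62.3% of all genes with a peak, and none was lower in PRMT5 RIP. Their median log2 ratio was 1.04 (range 0.15 to 2.48), and 26 of the 69 were above the median of their input class. Of the genes whose input was at least 0.5 RPM, the 5 with the largest log2 ratios were WEE1, a kinase that holds back mitosis (2.40, 11.45 RPM against 2.16 RPM), FANCF of the Fanconi anemia core complex (2.17, 4.13 RPM against 0.91 RPM), the thymine glycosylase TDG (2.12, 3.60 RPM against 0.82 RPM), CETN2, a partner of XPC (1.81, 3.38 RPM against 0.96 RPM), and FAAP24 (1.75, 3.42 RPM against 1.01 RPM). In each of these 5 the 5′-most peak began between -2 nt and 80 nt from a start. Such a position is common: 3432 of 5647 named protein-coding genes were within 100 nt. The 5 with the smallest were SWI5, a recombination factor (0.15, 37.16 RPM against 33.38 RPM), BABAM1 and ABRAXAS1, subunits of one complex that acts with BRCA1 (0.28, 121.21 RPM against 100.10 RPM, and 0.32, 4.17 RPM against 3.35 RPM), the ubiquitin-conjugating enzyme UBE2T (0.32, 6.26 RPM against 5.0 RPM) and the checkpoint clamp loader subunit RAD17 (0.34, 0.76 RPM against 0.60 RPM). Their 5′-most peaks began at 124 nt (SWI5), 9 nt (BABAM1), 24110 nt (ABRAXAS1), 14 nt (UBE2T) and -371 nt (RAD17) from a start. Every peak of ABRAXAS1 and of RAD17 overlaps a peak on the opposite strand.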
